A study of Mus musculus with 4 samples.

Results

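The genes described here encode the respiratory chain and ATP synthase subunits that are made from nuclear DNA. They were taken by symbol: Nduf genes of the a, b, c, s and v series for complex I, Sdha to Sdhd for complex II, Uqcr genes for complex III, Cox4 to Cox8 genes for complex IV and Atp5 genes for complex V. Of 43496 Ensembl genes in the count table, 93 had such a symbol and 83 had an estimated count above 5 in at least 2 of the 4 libraries. These 83 genes comprised 37 of complex I, 4 of complex II, 8 of complex III, 16 of complex IV and 18 of complex V. Protein-coding genes made up 81 of them, and the others, Ndufb4c and Atp5l2-ps, are processed pseudogenes. Ndufa4 carries a complex I name but its protein sits with complex IV, Cox7a2l encodes a factor that joins complexes into supercomplexes, and Atp5s encodes coupling factor B. The naming rule did not take Ndufab1, Cyc1 or Usmg5, whose products are also part of these complexes. The 10 genes with a matching symbol that missed the count minimum were Cox6a2, Cox8b and 8 processed pseudogenes. The count minimum lay between Cox6a2, with 1, 2, 0 and 1 estimated counts in the libraries, and Cox8c, with 11, 7, 10 and 4.

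The study compared cultures of E14, a pluripotent embryonic stem cell line of the mouse, after transfection with an shRNA against the endogenous retrovirus MERVL or with a random shRNA. The random shRNA cells were labelled wild type in genotype and the others as knocked down for MERVL. Both groups were labelled strain 12910la, were grown on gelatin in medium with serum and LIF, and received 1000 ng of pSuper puro plasmid. Puromycin at 1 µg/ml followed after 24 h and was kept on the cells for 4 days, so both groups were drug-selected populations of transfected cells. Each group had 2 libraries of a randomly primed mRNA-seq kit. The labels do not state that the 2 libraries of a group came from separate cultures, so the spread behind each p-value is that between these libraries only and may be technical. The series does not state a question about mitochondria, and the comparison below is the single contrast that its design offers.

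The respiratory chain lies in the inner mitochondrial membrane. Complex I takes electrons from NADH and complex II takes them from succinate; both pass them to ubiquinone, from which complex III hands them to cytochrome c and complex IV to oxygen. Complexes I, III and IV pump protons, and complex V, the ATP synthase, lets the protons flow back and makes ATP. A few core subunits of complexes I, III, IV and V are encoded in mitochondrial DNA and the rest in the nucleus, so each of these complexes is assembled from both genomes. Embryonic stem cells in serum and LIF respire but also rely strongly on glycolysis. All 13 protein genes of mitochondrial DNA were listed at 0 in each library, so the mitochondrial part of the chain is not described.

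Promoters of respiratory chain genes are known for sites of the factors NRF1, GABP (an ETS factor), YY1 and the oestrogen-related receptors (ERR). RefSeq promoter entries for GRCm38.p6, covering 250 bases before to 50 bases after a gene start, were matched by symbol to 67 of the 83 genes, with 72 promoters in all. The NRF1 motif GCGCANGCG, searched like the others on both strands, was found in 21 of these promoters (29.2%), in 6.25% of all 32851 promoters in the table and in 8.58% of the 21263 promoters of protein-coding genes. The ETS motif CCGGAAG was found in 22.2%, against 8.86% of all promoters and 11.6% of protein-coding promoters. The YY1 motif AAGATGGC was found in 13.9%, against 2.75% and 3.05%. The ERR motif TCAAGGTCA was found in only 2 of the 72 promoters (2.78%), against 0.423% and 0.334%. The GC box GGGCGG (40.3% against 35.7%, or 46.2% of protein-coding promoters) and the CCAAT box CCAAT (43.1% against 37.4%) were closer to their share among all promoters. The searched letters of these 6 motifs can overlap in a promoter, and a match is a description of the sequence, not a bound site. Promoter stretches upstream of the start are shown for 4 genes whose fold change lay below the median of their complex (Ndufa11, Sdhd, Cox5a and Atp5g3) and for Ndufa3, a complex I gene that was higher in both MERVL shRNA libraries. They were picked after the values were seen, run 5′ to 3′ on the gene's strand, cover at most 150 bases and stop where an annotated exon begins. Capitals mark a matched motif or its reverse complement: overlapping NRF1 matches on both strands in Ndufa11, an ETS match in Sdhd, GC boxes in Ndufa3 and Cox5a, and a CCAAT box followed by an ERR match in Atp5g3.
Ndufa3, chr7:3617223-3617372, plus strand: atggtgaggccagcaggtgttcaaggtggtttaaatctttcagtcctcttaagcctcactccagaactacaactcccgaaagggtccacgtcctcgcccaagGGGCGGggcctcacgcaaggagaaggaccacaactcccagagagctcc
Ndufa11, chr17:56717686-56717761, plus strand: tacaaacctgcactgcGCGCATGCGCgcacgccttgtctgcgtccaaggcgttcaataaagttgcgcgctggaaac
Sdhd, chr9:50603850-50603909, minus strand: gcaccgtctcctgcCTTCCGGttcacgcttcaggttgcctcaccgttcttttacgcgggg
Cox5a, chr9:57521082-57521231, plus strand: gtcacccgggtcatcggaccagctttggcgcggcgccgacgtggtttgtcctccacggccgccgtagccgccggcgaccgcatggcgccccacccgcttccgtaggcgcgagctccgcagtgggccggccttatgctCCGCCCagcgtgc
Atp5g3, chr2:73911327-73911476, minus strand: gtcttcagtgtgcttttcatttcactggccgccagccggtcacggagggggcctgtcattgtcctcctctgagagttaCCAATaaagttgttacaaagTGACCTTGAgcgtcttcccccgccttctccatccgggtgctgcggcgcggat

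Libraries held 11628887 to 16067854 estimated counts. MERVL copies took 0.472% and 0.147% of the counts in the random shRNA pair (replicate 1 first, as in all pairs of values below) and 0.115% and 0.0555% in the MERVL shRNA pair, so the targeted element was lowest in the MERVL shRNA libraries but the random shRNA libraries differed strongly from each other. All 10 pluripotency markers were detected, with summed levels of 7878 and 8931 CPM in the random shRNA libraries and 9241 and 9969 CPM in the MERVL shRNA libraries. CPM, the count relative to library size, is scaled here by TMM, which sets the libraries to a common level over most genes. Of 12 fibroblast or feeder markers 5 were at 0 in each library (Col3a1, Prrx1, Lum, Dcn and Postn), and the list summed to 22.6 to 47.2 CPM. The 12 heart and skeletal muscle markers, which bear on the muscle isoforms of complex IV, summed to 20.2 to 35.1 CPM. Markers of primitive endoderm (19.5 to 25.0 CPM), trophectoderm (41.5 to 69.6 CPM) and neural progenitors (92.4 to 162.1 CPM) were low beside the pluripotency markers. Markers of 2-cell-like cells, a rare state of stem cell cultures, summed to 1506 and 429.7 CPM with random shRNA and to 322.8 and 185.4 CPM with MERVL shRNA. In 9 of 9 markers both MERVL shRNA libraries lay below both random shRNA libraries, where 21.8% of all genes tested did so. The list named 10 genes, of which Dux was not matched by name.

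Respiratory chain genes took 1.21% of all counts in random shRNA replicate 1 (95% Wilson interval 1.206% to 1.217%) and 1.37% in replicate 2 (1.363% to 1.376%). They took 1.34% (1.336% to 1.347%) and 1.44% (1.433% to 1.445%) in MERVL shRNA replicates 1 and 2. Random shRNA replicate 1 was lowest and random shRNA replicate 2 lay between the MERVL shRNA libraries, so the groups overlapped. The intervals cover counting error only.

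Levels per transcript length (RPKM, from TMM-scaled CPM) rank genes of the chain against each other. Complex V had the highest median transcript level over its genes. It was 186.0 and 220.9 RPKM with random shRNA and 211.9 and 241.2 RPKM with MERVL shRNA. Complex IV followed in 3 of the 4 libraries, at 132.2, 172.3, 170.8 and 206.4 RPKM, and complex III stood at 138.5, 143.9, 143.3 and 165.3 RPKM. Complex II had medians of 66.9, 73.0, 76.6 and 79.0 RPKM and complex I of 56.6, 67.3, 69.8 and 78.3 RPKM. This order was the same in each library except that complex III lay above complex IV in random shRNA replicate 1. The highest mean level over the 4 libraries was that of Atp5b, the catalytic β subunit of the ATP synthase, at 1367 RPKM. Cox6a1, a small complex IV subunit, stood at 671 RPKM and Atp5a1, the α subunit that alternates with β in the F1 head, at 559 RPKM. The lowest were Cox7b2 at 1.16 RPKM and Cox8c at 1.20 RPKM, isoforms known from testis, followed by the pseudogenes Ndufb4c at 4.27 RPKM and Atp5l2-ps at 5.68 RPKM.

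None of the 82 genes tested was higher or lower with MERVL shRNA in the edgeR quasi-likelihood test at an adjusted p of 0.05, where 1 of 15735 genes tested was called higher (0.00636%) and 0 lower (0.0%). The smallest adjusted p among them was 0.329 (edgeR, Benjamini-Hochberg over all features tested). At an unadjusted p under 0.05, 6 were higher, against 4.87% of all genes tested, and 3 were lower, against 6.35%. DESeq2 called 0 higher and 1 lower (Sdhd), against 0.475% and 0.752% of the genes to which it gave an adjusted p. With no filter on low counts edgeR called 1 higher (Ndufb11) and 1 lower (Sdhd), against 1.05% and 1.81%. With a term for the replicate number, it called 1 higher (Ndufb11) and 0 lower, against 0.699% and 1.6%. The 1 gene not tested, for low counts, was Cox8c. In simulated data a 1.5-fold difference was recovered for 2 of 189 genes. A lack of calls thus says little about differences of that size. In bulk RNA of this kind, fewer cells of a type and less RNA per cell cannot be told apart.

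The log2 fold change (MERVL shRNA over random shRNA) was positive in 68 of the 82 genes, against 50.5% of all genes tested, and its median was 0.18, against 0.00 over all genes tested. Both MERVL shRNA libraries lay above both random shRNA libraries in 32 of the genes, where 23.0% of all genes tested did so, and below both in 4, where 21.8% did. The random shRNA libraries themselves differed in the same direction. Random shRNA replicate 1 was lower than replicate 2 in 68 of the 82 genes, by a median of -0.30 on the log2(CPM + 1) scale, against -0.02 over all genes tested. Between the MERVL shRNA libraries the median gap, replicate 1 minus replicate 2, was -0.13, against -0.01. Random shRNA replicate 1 was the lowest of the 4 libraries for 63 genes, and MERVL shRNA replicate 2 the highest for 52. Random shRNA replicate 2, in contrast, lay below both MERVL shRNA libraries for 36 genes, between them for 24 and above both for 22.

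**Figure D1:**
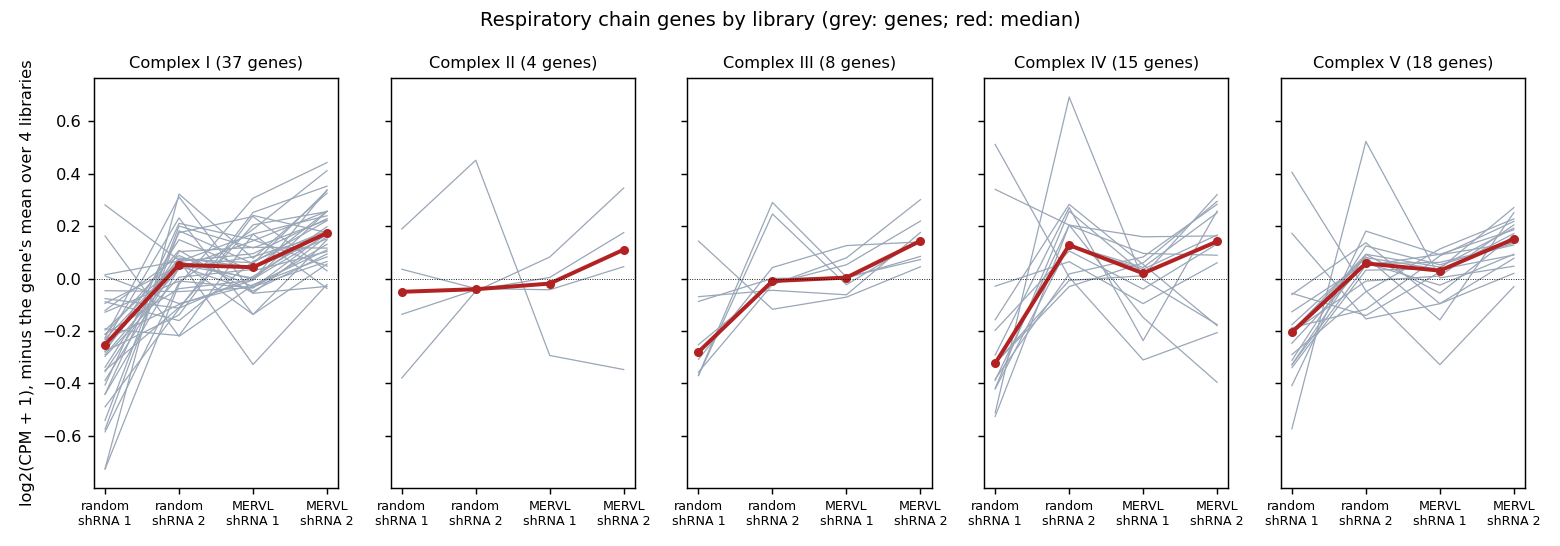
Level of each of the 82 genes tested (grey lines) on the log2(CPM + 1) scale, minus the gene's own mean over the 4 libraries, by complex, with the median in red. Random shRNA replicate 1 has the lowest median in each complex and MERVL shRNA replicate 2 the highest, while random shRNA replicate 2 and MERVL shRNA replicate 1 lie between them.

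Leaving out random shRNA replicate 1 gave a median log2 fold change of 0.03 over the 82 genes, with 47 positive, and leaving out random shRNA replicate 2 gave 0.40. In the first of these fits, where the spread is estimated from the MERVL shRNA pair alone and the lone random shRNA library is assumed to vary like it, edgeR called 3 of the genes higher (Ndufs1, Ndufb5 and Ndufb11) and 4 lower (Sdhd, Cox4i2, Ndufa11 and Atp5s), against 7.03% and 7.32% of genes tested. In the second it called 46 higher and 4 lower, against 15.6% and 13.7%. Sdhd was called lower in both fits (-0.77 and -0.50), while Atp5s was called lower in the first (-0.54) and higher in the second (0.70). Leaving out MERVL shRNA replicate 1 or 2 gave 0 calls in each direction, against 0.0122% and 0.012% of genes tested called higher. The summed 2-cell-like markers were highest in random shRNA replicate 1, where most respiratory chain genes were lowest, and lowest in MERVL shRNA replicate 2, where most were highest. Their part in the result was not tested.

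**Figure D2:**
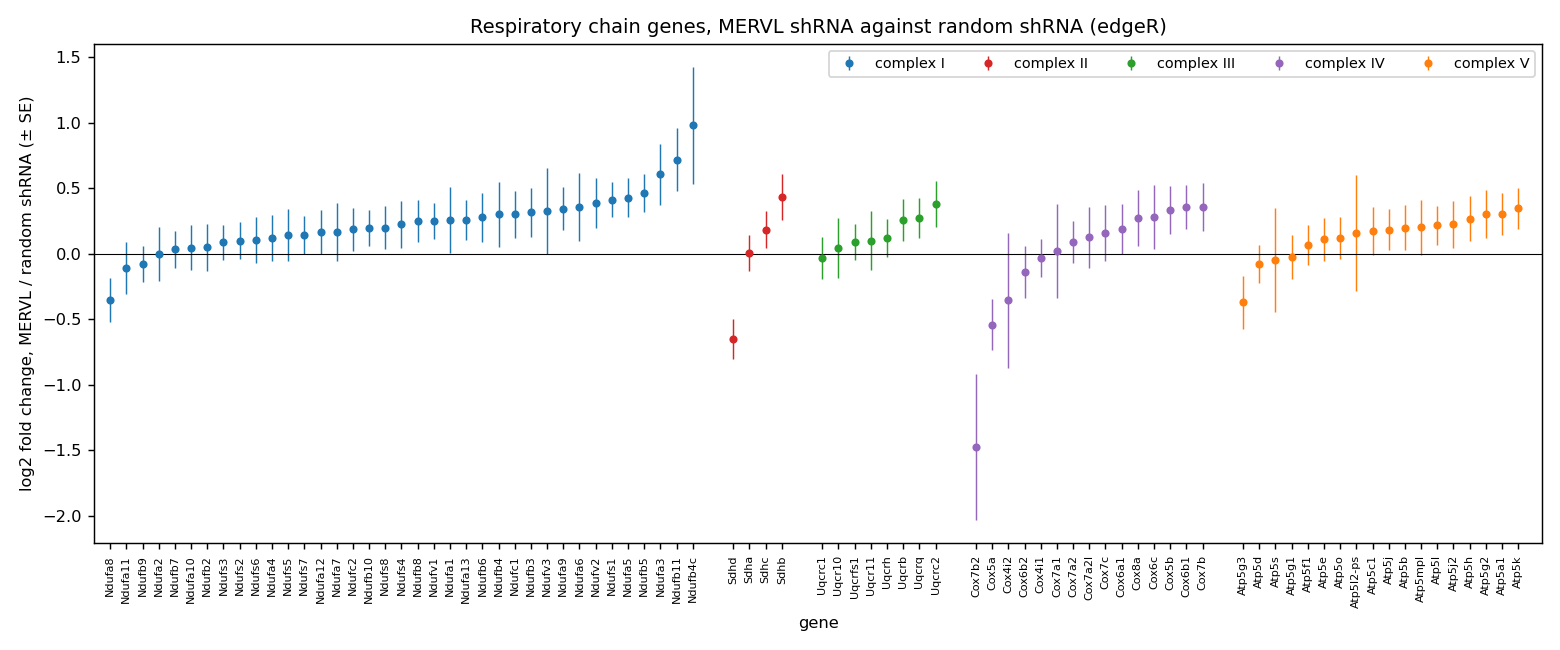
Log2 fold change of each gene with its standard error, from the edgeR fit of all 4 libraries, sorted within each complex. Most points lie above 0, while Ndufa8, Sdhd, Cox5a and Cox7b2 lie below 0 by more than 2 standard errors.

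Complex I genes had the highest median of the 5 complexes with all 4 libraries, 0.23, with 34 of 37 positive, where 50.5% of all genes tested were, and 16 with both MERVL shRNA libraries above the random shRNA pair, where 23.0% of all genes tested were. Their median was 0.07, with 25 of 37 positive, when random shRNA replicate 1 was left out. In the NADH-binding module, the tip of the peripheral arm where electrons enter, all 9 genes were positive with a median of 0.23, although Ndufa2 was at 0.00. Leaving out random shRNA replicate 1 left 5 of the 9 positive, with a median of 0.02. In the quinone-binding module, which passes electrons to ubiquinone, 7 of 7 were positive with a median of 0.20, and all 7 were positive without random shRNA replicate 1 too (median 0.10). In the membrane arm, which holds the proton channels, 16 of 19 were positive with a median of 0.25, and 12 of 19 with a median of 0.07 when random shRNA replicate 1 was left out. The random shRNA libraries were further apart for the NADH-binding module (median gap -0.44) than for the quinone-binding module (-0.13).

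Ndufs1, the largest subunit of complex I and carrier of several of its iron-sulphur clusters (chr1:63143596-63176833, minus strand, GRCm38), stood at 120.8 and 118.6 CPM in the random shRNA libraries and at 155.4 and 163.2 CPM in the MERVL shRNA libraries. The 2 random shRNA libraries were nearly level and the groups did not overlap. Means were 120 ± 1.53 CPM (SD, n = 2) and 159 ± 5.49 CPM (SD, n = 2), with a log2 fold change of 0.41 ± 0.13 (SE) that did not pass the edgeR test (Benjamini-Hochberg adjusted p = 0.329). With random shRNA replicate 1 left out the log2 fold change was 0.43. The value of Ndufs1 thus hardly moved when that library was left out.

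Ndufb5, an accessory subunit of the membrane arm, stood at 61.1 and 72.3 CPM with random shRNA and at 90.2 and 93.4 CPM with MERVL shRNA. The groups did not overlap, and the log2 fold change was 0.46 ± 0.14 (edgeR adjusted p = 0.329). Ndufb11, an X-linked membrane-arm subunit (chrX:20615326-20617619, minus strand), stood at 61.9 and 101.5 CPM with random shRNA and at 127.8 and 140.5 CPM with MERVL shRNA. Its groups did not overlap either, but random shRNA replicate 1 lay far below replicate 2. The log2 fold change of 0.72 ± 0.24 (edgeR adjusted p = 0.329) was 0.41 without random shRNA replicate 1.

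Ndufa5, an accessory subunit of the quinone-binding module, stood at 27.6 and 30.5 CPM against 40.0 and 38.1 CPM, a log2 fold change of 0.43 ± 0.15 (edgeR adjusted p = 0.329). Ndufa3, a small membrane-arm subunit, stood at 15.1 and 22.9 CPM against 26.5 and 31.1 CPM (0.61 ± 0.23, edgeR adjusted p = 0.349). For both genes the groups did not overlap, but the random shRNA libraries were much further apart for Ndufa3. Ndufa3 was at 0.33 and Ndufa5 at 0.36 when random shRNA replicate 1 was left out. Exons of Ndufs1, Ndufb5, Ndufb11 and Ndufa3 overlap a counted gene on the opposite strand (Eef1b2 and Ino80dos, Mrpl47, Rbm10 and Tfpt). The sources used here do not give whether counting used strand, so reads of such pairs may not be separated. The same holds for 22 of the 83 genes, and Ndufb8 overlaps Gm20538 on its own strand.

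The pseudogene Ndufb4c had the highest log2 fold change of the chain, 0.98 ± 0.45 (edgeR adjusted p = 0.400), at 0.85 and 1.40 CPM against 2.10 and 2.32 CPM. The libraries of the groups did not overlap, but the gene is named as a copy of Ndufb4, so its estimated counts are uncertain. Ndufa8, an accessory subunit on the intermembrane face, was the 1 complex I gene lower in both MERVL shRNA libraries, at 52.8 and 45.5 CPM against 34.3 and 42.6 CPM (-0.36 ± 0.17, edgeR adjusted p = 0.421). Ndufa11, a subunit that stabilises the membrane arm, stood at 81.6 and 118.8 CPM against 91.8 and 93.5 CPM. Its MERVL shRNA libraries lay between the random shRNA libraries, with a log2 fold change of -0.11 ± 0.20 (edgeR adjusted p = 0.856). This value became -0.35 without random shRNA replicate 1 and 0.20 without random shRNA replicate 2.

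Complex II, succinate dehydrogenase, has 4 subunits, all nuclear, and it is also an enzyme of the tricarboxylic acid cycle. Its genes diverged. Sdhd, a membrane anchor that binds ubiquinone with Sdhc (chr9:50596357-50603812, minus strand), stood at 151.2 and 181.6 CPM with random shRNA and at 107.9 and 103.9 CPM with MERVL shRNA. Both MERVL shRNA libraries lay below the random shRNA pair and close to each other. Means were 166 ± 21.5 CPM and 106 ± 2.82 CPM (SD, n = 2 each), and the log2 fold change was -0.65 ± 0.15 (SE). This was the smallest unadjusted p of the chain, 0.00429 in edgeR's test across all genes, but with an adjusted p of 0.329 it did not pass. DESeq2 called it lower (adjusted p = 0.0456). Without random shRNA replicate 1, the lower of its pair, edgeR gave a log2 fold change of -0.77.

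Sdhb, the iron-sulphur subunit, was placed the other way, at 69.3 and 87.5 CPM with random shRNA and at 95.9 and 115.3 CPM with MERVL shRNA. The groups did not overlap, and the log2 fold change of 0.43 ± 0.17 did not pass (edgeR adjusted p = 0.362) and was 0.27 without random shRNA replicate 1. Sdhc, the other anchor, stood at 97.6 and 104.1 CPM against 107.7 and 121.4 CPM (0.18 ± 0.14, edgeR adjusted p = 0.635). Sdha, the flavoprotein that oxidises succinate, stood at 212.0 and 201.4 CPM against 200.8 and 213.5 CPM (0.00 ± 0.14, edgeR adjusted p = 0.996), with groups that overlapped fully. The random shRNA gap was smaller for complex II (median -0.18) than for the other complexes, and its median of 0.09 was the same without random shRNA replicate 1.

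Complex III genes had a median log2 fold change of 0.11, with 7 of 8 positive, and 0.10 without random shRNA replicate 1. Uqcrc2, a large core protein, stood at 161.5 and 203.9 CPM with random shRNA and at 218.9 and 255.5 CPM with MERVL shRNA (0.38 ± 0.17, edgeR adjusted p = 0.407). Its groups did not overlap, but the 2 random shRNA libraries were about as far apart as the 2 MERVL shRNA libraries, and the value was 0.22 without random shRNA replicate 1. Uqcrc1, the core protein that pairs with it, was at 418.6 and 349.3 CPM against 360.7 and 391.0 CPM (-0.03 ± 0.16), with random shRNA replicate 1 highest. The Rieske iron-sulphur protein Uqcrfs1, which hands electrons on to cytochrome c1, was at 177.4 and 188.6 CPM against 188.8 and 199.9 CPM (0.09 ± 0.14, edgeR adjusted p = 0.833).

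The 5 small subunits of complex III were all positive, with a median of 0.12. Uqcrq stood at 108.1 and 127.2 CPM against 133.8 and 150.3 CPM (0.27 ± 0.15, edgeR adjusted p = 0.498), and Uqcrb at 89.2 and 114.0 CPM against 120.9 and 122.1 CPM (0.26 ± 0.16, edgeR adjusted p = 0.549). Both products have been described as ubiquinone-binding proteins, and in both genes the groups did not overlap. Leaving out random shRNA replicate 1 gave 0.16 for Uqcrq and 0.096 for Uqcrb, and left 3 of the 5 small subunits positive. Uqcrh, the hinge protein, was level in 3 libraries and higher in MERVL shRNA replicate 2, at 80.4 and 81.7 CPM against 80.8 and 95.4 CPM (0.12 ± 0.14, edgeR adjusted p = 0.777).

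Complex IV, cytochrome c oxidase, showed the widest spread between the random shRNA libraries, with a median gap of -0.44. With all libraries the median log2 fold change of its 15 tested genes was 0.13, with 10 positive, and without random shRNA replicate 1 it was -0.08, with 4 positive. Cox5a, a matrix-facing subunit present in all tissues (chr9:57521274-57532426, plus strand), stood at 231.6 and 162.7 CPM with random shRNA and at 130.5 and 140.4 CPM with MERVL shRNA. Unlike most of the chain it was highest in random shRNA replicate 1, and both MERVL shRNA libraries lay below the random shRNA pair. Means were 197 ± 48.7 CPM and 135 ± 6.97 CPM (SD, n = 2 each), and the log2 fold change of -0.54 ± 0.20 (edgeR adjusted p = 0.338) was -0.26 without random shRNA replicate 1. Cox5a overlaps Gm26631 on the opposite strand.

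Cox5b, which binds zinc beside Cox5a in the complex, stood at 112.3 and 140.2 CPM against 141.9 and 176.1 CPM (0.33 ± 0.18, edgeR adjusted p = 0.480). Cox6b1, which faces the intermembrane space, stood at 83.9 and 103.0 CPM against 109.7 and 129.3 CPM (0.36 ± 0.17, edgeR adjusted p = 0.411). Cox7b, a small membrane subunit, stood at 134.6 and 178.1 CPM against 186.3 and 214.3 CPM (0.36 ± 0.18, edgeR adjusted p = 0.451). In all 3 genes the groups did not overlap, yet random shRNA replicate 2 was closer to MERVL shRNA replicate 1 than to random shRNA replicate 1. When the latter was left out, Cox5b was at 0.19, Cox6b1 at 0.22 and Cox7b at 0.17. Of the 10 broadly expressed complex IV subunits 8 were positive, with a median of 0.23 that was -0.03 without random shRNA replicate 1.

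Several complex IV subunits exist as a broad form and as a form known from particular tissues. The broad form took most of the RPKM of its family in every library. Cox4i2, known from lung and from hypoxic cells, took 0.811% and 2.12% of Cox4 with random shRNA and 1.34% and 1.04% with MERVL shRNA. Cox7a1, the heart and muscle form, took 9.95% and 12.4% of the Cox7a pair (with Cox7a2) against 9.39% and 12.1%, so the MERVL shRNA libraries were spread as widely as the random shRNA ones. Cox6b2, known from testis, took the largest share of such a form, 27.4% and 29.6% of Cox6b against 25.1% and 19.4%. It was thus lower in both MERVL shRNA libraries as a share, although its own level did not separate the groups, at 28.3 and 38.7 CPM against 32.9 and 27.8 CPM.

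Cox7b2, another isoform of low level, stood at 1.02 and 0.839 CPM with random shRNA and 0.440 and 0.213 CPM with MERVL shRNA, from 16, 10, 7 and 3 estimated counts. The groups did not overlap, and the log2 fold change of -1.47 ± 0.56 was the lowest of the chain (edgeR adjusted p = 0.347). Cox8c took 0.134% to 0.526% of Cox8 RPKM and was too low to test. Of the 4 tested alternative forms 1 was positive, with a median of -0.25, and 0 were positive without random shRNA replicate 1. Among these, Cox4i2, at 2.49 and 7.04 CPM against 3.96 and 3.41 CPM, had its highest level in random shRNA replicate 2 and overlapped between the groups. Its log2 fold change of -0.36 ± 0.51 was -0.93 without random shRNA replicate 1 and 0.58 without random shRNA replicate 2.

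**Figure D3:**
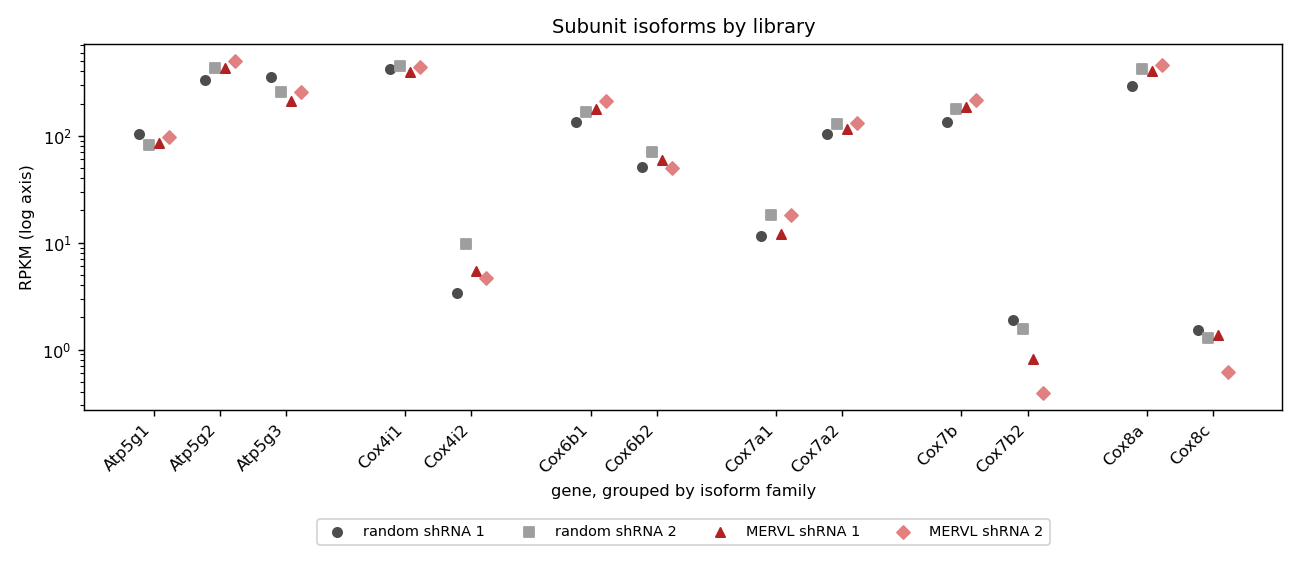
Level per transcript length (RPKM, log axis) of subunit isoforms in each library, grouped by family. Cox4i2, Cox7a1, Cox7b2 and Cox8c lie far below the broad form of their family, Cox6b2 lies nearer to Cox6b1, and Atp5g3 lies above Atp5g2 in random shRNA replicate 1 only.

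Complex V genes had a median log2 fold change of 0.18, with 14 of 18 positive, and 0.01 without random shRNA replicate 1, with 9 positive. Atp5a1 was at 1206 and 1266 CPM with random shRNA and 1458 and 1598 CPM with MERVL shRNA (0.31 ± 0.16, edgeR adjusted p = 0.466). The groups did not overlap, the random shRNA libraries were close to each other, and the value was 0.28 without random shRNA replicate 1. Atp5b, its partner in the F1 head, was at 2510 and 2367 CPM against 2656 and 2940 CPM (0.20 ± 0.17, edgeR adjusted p = 0.672) and was also separated between the groups. The γ, δ and ε subunits of the central stalk, Atp5c1, Atp5d and Atp5e, overlapped between the groups, with values of 0.17, -0.08 and 0.11.

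Atp5k, a membrane subunit that helps ATP synthases form dimers, stood at 29.0 and 34.5 CPM against 38.7 and 42.0 CPM (0.35 ± 0.16, edgeR adjusted p = 0.396). Atp5h, a subunit of the peripheral stalk, stood at 157.2 and 204.7 CPM against 210.9 and 225.1 CPM (0.27 ± 0.17, edgeR adjusted p = 0.560). In both genes the groups did not overlap, and without random shRNA replicate 1 the values were 0.23 and 0.095. All 4 peripheral stalk genes and all 4 membrane genes other than the c ring were positive, with medians of 0.15 and 0.22. Without random shRNA replicate 1 these medians were 0.02 and 0.08.

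The c ring, the rotor that protons turn, is built from 1 protein made by 3 genes. Random shRNA replicate 1 was higher than replicate 2 for Atp5g1 and Atp5g3, whereas Atp5g2 was lower in replicate 1, like most of the chain. Atp5g3 stood at 252.2 and 184.0 CPM with random shRNA and 151.1 and 186.0 CPM with MERVL shRNA (-0.37 ± 0.20, edgeR adjusted p = 0.483), and its groups overlapped. Atp5g2 stood at 193.4 and 250.6 CPM against 251.5 and 295.9 CPM (0.30 ± 0.18, edgeR adjusted p = 0.532). The values without random shRNA replicate 1 were -0.12 for Atp5g3 and 0.13 for Atp5g2. As a share of the 3 genes' RPKM, Atp5g2 took 42.1% and 55.8% with random shRNA and 59.2% and 58.7% with MERVL shRNA. Atp5g3 took 44.8% and 33.4% against 29.0% and 30.1%, and Atp5g1 13.1% and 10.7% against 11.8% and 11.2%. Both MERVL shRNA libraries lay outside the range of the random shRNA libraries for Atp5g2 and Atp5g3, although random shRNA replicate 2 was much closer to them than replicate 1 was. These shares depend on the transcript lengths used, 2675.5 nt for Atp5g1, 586 nt for Atp5g2 and 718.5 nt for Atp5g3. Before division by length, Atp5g1 stood at 275.8 and 219.7 CPM against 228.8 and 258.1 CPM, so its low share does not mean a low count.

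The 20 genes listed as catalytic or core had a median log2 fold change of 0.18, with 16 positive. Without random shRNA replicate 1 the median was 0.13, again with 16 positive. Their random shRNA gap was -0.09, against -0.30 over all 82 genes. For complex IV this list held Cox4i1, Cox5a and Cox5b, which are nuclear subunits. The core subunits of complex IV encoded in mitochondrial DNA are not described. Genes were also compared by promoter motif. Those with and without an NRF1 match had medians of 0.16 and 0.18, with and without an ETS match 0.19 and 0.17, and with and without a YY1 match 0.23 and 0.17. The 2 genes with an ERR match, Sdhd (-0.65) and Atp5g3 (-0.37), had a median of -0.51. Both are among the genes picked for display after their values were seen. In Sdhd the ERR match lies outside the stretch shown.

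Genes that build and feed the chain were given by 11 lists, with 161 genes of which 158 were tested. None was called higher or lower by the edgeR test. At an unadjusted p under 0.05, 4 were higher and 7 lower, where 4.87% and 6.35% of all genes tested were. In 44 genes the MERVL shRNA pair lay above the random shRNA pair and in 25 below it, where 23.0% and 21.8% of all genes tested did so. The median log2 fold change was 0.07 over all of them and lay between -0.10 (complex V assembly) and 0.17 (complex III assembly) for the single lists.

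Some of the largest differences in these lists lay next to the chain rather than in it. Slc25a4, an ADP/ATP carrier of the inner membrane, stood at 275.1 and 289 CPM with random shRNA and 125 and 140.3 CPM with MERVL shRNA. Its groups did not overlap, and the log2 fold change of -1.09 ± 0.14 did not pass (edgeR adjusted p = 0.211). Slc25a31, a carrier of the same kind known from germ cells, had -0.86 ± 0.28 (edgeR adjusted p = 0.329) and the phosphate carrier Slc25a3 -0.32 ± 0.16. The median of the 7 carriers was 0.05, so these 3 did not represent their list.

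Pdha1, a subunit of the pyruvate dehydrogenase that feeds the tricarboxylic acid cycle, stood at 196 and 181 CPM against 108 and 106 CPM (-0.82 ± 0.14, edgeR adjusted p = 0.283). Citrate synthase (Cs), the first enzyme of the cycle, stood at 276 and 202 CPM against 125 and 127 CPM (-0.92 ± 0.18, edgeR adjusted p = 0.305). In both genes the MERVL shRNA pair lay below the random shRNA pair. Pdhb, the partner of Pdha1, was higher (0.33 ± 0.14, edgeR adjusted p = 0.369), and 12 of the 18 genes of this list were positive, with a median of 0.10. Among electron carriers and quinone synthesis genes, testis cytochrome c (Cyct) had -0.86 ± 0.32, the quinone hydroxylase Coq6 0.33 ± 0.14 and the electron transfer flavoprotein dehydrogenase Etfdh 0.37 ± 0.15, with a list median of 0.01.

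Among complex I assembly factors, Ndufaf3, needed early in assembly of the peripheral arm, stood at 11.3 and 13.7 CPM against 22.4 and 27.2 CPM (0.99 ± 0.20, edgeR adjusted p = 0.307), with groups that did not overlap. Tmem186 had 0.49 ± 0.15 and Ndufaf5 0.44 ± 0.18, while the 16 factors had a median of 0.08. The ATP synthase assembly factors Tmem242 (0.52 ± 0.15) and Tmem70 (-0.44 ± 0.15) lay in opposite directions, and Atpaf2 was at -0.20 ± 0.16. In the complex IV list, Surf1 was at 0.40 ± 0.16, Cox19 at 0.43 ± 0.18 and Cox16 at -0.32 ± 0.20. Assembly factors of complex III (Uqcc1 0.27, Lyrm7 0.83 and Uqcc3 0.22) and complex II (Sdhaf3 -0.33, Sdhaf1 0.17 and Sdhaf4 0.14) were also uncalled. The regulators nearest to the threshold were Tfam, which packages and transcribes mitochondrial DNA (-0.24 ± 0.13), Esrra (0.35 ± 0.19) and Ppargc1b (0.68 ± 0.38), with a list median of 0.06. In protein import, Timm8a1 was at -0.37 ± 0.13, Tomm7 at 0.34 ± 0.18 and Timm23 at 0.24 ± 0.14, with a list median of 0.07.

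The glycolysis list had a median log2 fold change of 0.05 over its 17 genes, with 11 positive and a random shRNA gap of -0.40. Without random shRNA replicate 1 its median was -0.21, with 3 positive, whereas the respiratory chain had 0.03 with 47 of 82. The phosphofructokinase gene Pfkm (-0.29), the glucose transporter gene Slc2a3 (0.17) and the hexokinase gene Hk2 (0.14) had the smallest p of the list. Cytosolic ribosomal protein genes, the other large set of short transcripts, lay in the same direction as the chain and further from 0: 80 of 84 were positive with a median of 0.28, and the random shRNA gap was -0.43. Without random shRNA replicate 1 their median was 0.09. Mitochondrial ribosomal protein genes, also nuclear genes of mitochondrial function, had a median of 0.07 over 77 genes and a random shRNA gap of 0.01. The differences between these sets were not tested.

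**Figure D4:**
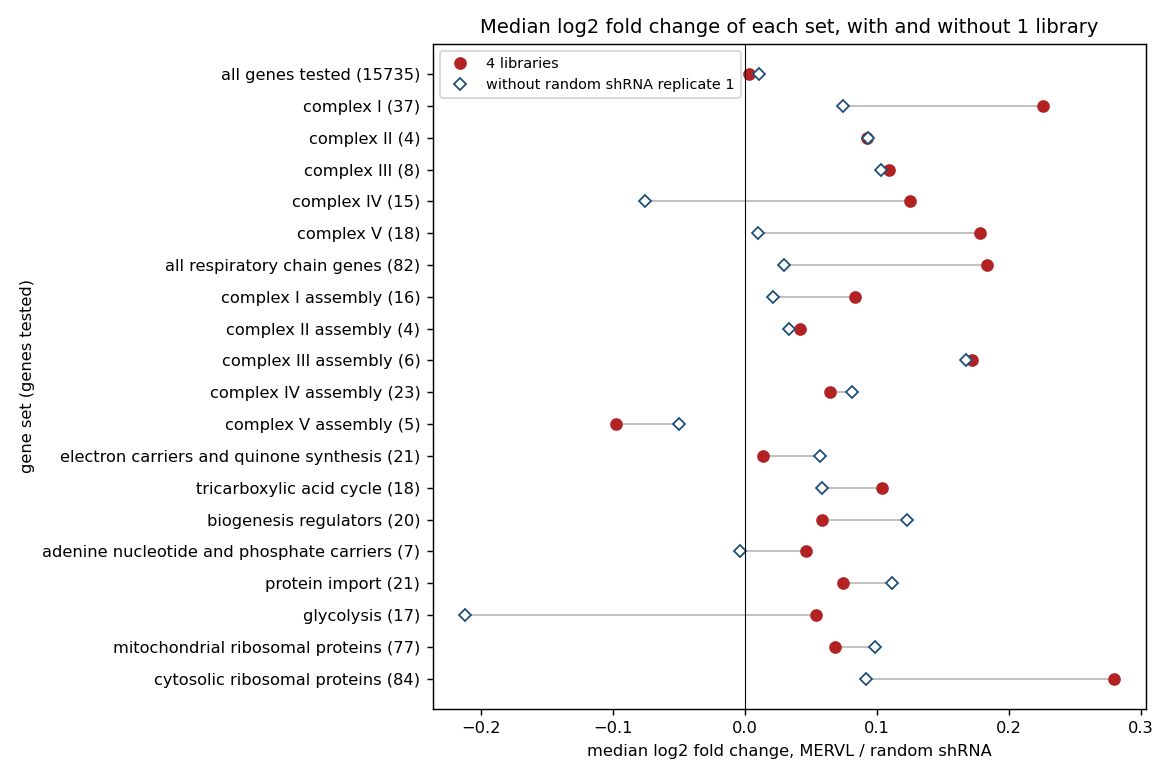
Median log2 fold change of each gene set with all 4 libraries (filled circles) and without random shRNA replicate 1 (open diamonds), with the number of genes tested in parentheses. Leaving that library out lowers the median of complex I from 0.23 to 0.07, of complex IV from 0.13 to -0.08 and of complex V from 0.18 to 0.01, while complexes II and III stay at 0.09 and near 0.10.

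Transcript length moved with the random shRNA gap. Over all protein-coding genes tested, the median gap was -0.22 for the 931 genes under 1000 nt, -0.08 for 3039 genes of 1000 to 2000 nt and 0.04 for 9513 longer genes. Respiratory chain genes lay further out in the shorter classes, at -0.35 for 53 genes under 1000 nt and -0.25 for 22 genes of 1000 to 2000 nt. The 7 longer genes, a thinly filled class, stood at 0.03. The median log2 fold change was 0.19, 0.19 and 0.05 in these 3 classes of respiratory chain genes, and -0.01, 0.11 and 0.15 without random shRNA replicate 1. Over all protein-coding genes tested it was 0.06, -0.01 and -0.01 in the same classes. Without random shRNA replicate 1 it was -0.04, -0.03 and 0.02 over these protein-coding genes. The part of transcript length in the result was not tested.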

How the data were processed

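RNA-seq libraries of 2 random shRNA and 2 MERVL shRNA samples were grouped by title. The tools named in the submitters' processing notes are Trim Galore and HISAT2, with build mm10; versions, counting program and use of strand were not given in the sources used here. Estimated counts per gene were deposited by the authors, of which 19.1% to 20.8% per library were not whole, together with a table of whole-number normalized scores whose method was not given there.

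Estimated counts were rounded and tested for 15735 genes and 618 MERVL copies together with the edgeR 4.0.16 quasi-likelihood F test (R 4.3.3, TMM, filterByExpr, 2-sided, no replicate term), adjusted by Benjamini-Hochberg over all 16353 features, threshold 0.05. Standard errors come from this fit. RPKM divides TMM-scaled CPM by the median transcript length in GENCODE annotation of GRCm38. Names matched 42329 of 43496 genes. Alternatives were other scalings and filters, DESeq2 1.42.0, limma 3.58.1 (voom, and log2(score + 1)), a replicate block and leaving out each library. The tests were tested on simulated data.

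Named genes were the 5 members per complex with the smallest p, the 3 highest and 3 lowest fold changes, isoform and core genes, and up to 3 genes with the smallest p per other list; Ndufa11 and other genes called without random shRNA replicate 1 were added after their values were seen. Members and lists were chosen with earlier results of these data known. The NRF1 motif was shortened by 1 base after its first matches were seen.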

Additional observations from a re-analysis of the deposited data

How the results depend on the processing

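The main edgeR test called 0 respiratory chain genes higher and 0 lower. It called 1 higher (Ndufb11) and 1 lower (Sdhd) with no filter on low counts, against 1.05% and 1.81% of all genes. DESeq2 called 0 higher and 1 lower, against 0.475% and 0.752%. Limma on the authors' normalized scores called 11 higher and 2 lower, against 13.7% and 14.1% of all genes; the random shRNA libraries are closer together in those scores for the genes of the report. Leaving out 1 library gave 0 to 46 called higher and 0 to 4 called lower, and a median log2 fold change of 0.030 to 0.40 against 0.18. The other scalings, the CPM filter, limma-voom and the robust prior gave 0 calls in each direction. The median was 0.12 with library totals only, 0.15 with the scores and 0.17 to 0.20 under the other scalings, filters and tools. Among the 12 tested genes with whole counts in each library 8 were positive, their median was 0.093, and their random shRNA gap was -0.44 against -0.30. For Sdha, at 0.00, the sign turned with upper quartile scaling (-0.010), library totals (-0.056) and the scores (-0.013), and leaving out 1 library gave -0.028 to 0.075. The cause of these differences was not tested.

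With a replicate block 1 gene was called higher (Ndufb11, edgeR adjusted p = 0.0424) and 0 lower, against 0.699% and 1.6% of all genes tested. The median was 0.19. The gaps between replicates 1 and 2 in the 2 groups correlated with r = 0.04 across all genes tested and r = -0.15 across the respiratory chain genes. Genes are not independent replicates, and these values cannot tell whether libraries of the same number shared a batch. Of the 82 genes tested, 68 were lower in replicate 1 than in replicate 2 with random shRNA, and 72 with MERVL shRNA. With 2 libraries per group, the random shRNA gap of -0.30 was larger in size than the median fold change of 0.18, which limits what these libraries can show.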
